A study of Mus musculus with 6 samples.

Results

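Guanylate-binding proteins are large GTPases that cells make in response to interferons. They assemble on the vacuoles and surfaces of bacteria and parasites inside the cell, several are anchored to membranes by a prenyl group at their C terminus, and they help to open such vacuoles and to start inflammasome signaling. In the mouse their genes lie in one cluster on chromosome 3 and another on chromosome 5, and they are classical targets of interferon gamma, whose receptor signals through JAK kinases to STAT proteins. CSF-1, the growth factor of macrophages, signals through the receptor tyrosine kinase CSF-1R (Fms).

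The members were all genes that the array annotation names Gbp followed by a number. There were 10 of them among the 36028 genes on the array, namely Gbp1 to Gbp6 and Gbp8 to Gbp11, measured by 12 of 55378 probes. Each was followed across 3 groups of N18-Fms cells with 2 arrays each, which were unstimulated cells (labelled vehicle, at 0 h), cells kept with recombinant mouse CSF-1 (100 ng/ml) over 24 h, and cells kept with the same dose over 48 h. N18 is 1 luciferase-expressing subclone of C2H, a line derived from a prostate tumor of the TRAMP mouse, and N18-Fms is that subclone after retroviral transduction of c-fms and sorting. All 3 groups therefore carry the receptor and grew with serum and dihydrotestosterone, and since the line secretes CSF-1 itself, the unstimulated cells were not free of the ligand. Cells without the receptor are not analysed here. The times are those of the labels and the study's results, while its methods section gives shorter ones, and according to the methods the RNA was taken from 2 separate experiments.

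Levels are log2 of the background-subtracted spot signal minus log2 of the 75th percentile of the same array, so a level of 0 is a signal at that percentile. The scanner software marks each spot as well above background or not, and a probe without that mark on every array of a group has only an upper bound there. The share of the 59305 spots that the software marked so ranged over the arrays from 58.7% to 72.0%, and 0 spots were saturated. The first 24 h array lay on another slide and was scanned on another day than the other 5 arrays. Of the defining epithelial markers, Cdh1 was not well above background on any of the 6 arrays and Epcam on 1, whereas Krt8 was on all 6. On both unstimulated arrays 5 of 8 epithelial markers were well above background. Of 12 macrophage markers, 6 were well above background on both unstimulated arrays, 7 at 24 h and 6 at 48 h likewise, while Lyz2 and Spi1 were not on any array.

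The array uses older names than RefSeq. Its Gbp1 carries the transcript that RefSeq calls Gbp2b, and its Gbp6 carries the transcript that RefSeq calls Gbp7, while the gene now called Gbp6 is on the array as Mpa2l. The array names are kept here, with the RefSeq name added where it differs. The annotation of the probe for Gbp10 also lists the transcript of RefSeq Gbp6, so its signal cannot be assigned to Gbp10 alone. No 2 of the 60-base probes of these genes or of Mpa2l shared a run of more than 9 bases. That check compared probes only with each other, and even the 2 probes of Gbp1, which lie at different positions, shared only 6. Probes were not compared with the transcripts of the other genes, so signal from a related transcript was not tested for. Gbp11 is a transcribed pseudogene in RefSeq.

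Promoters of 5 of the 10 genes were in the RefSeq promoter table, all from the chromosome 3 cluster, and they are printed because 4 of these genes gave higher signals with CSF-1 and 1 was not well above background on any array. Each line gives the 250 bases before the annotated start of transcription, 5′ to 3′, on build GRCm38.p6. Capitals mark matches to an ISRE-like motif, which is GAAA, any 2 bases and GAAA again, or on the other strand TTTC, any 2 bases and TTTC, the kind of sequence bound by complexes that contain IRF proteins.
Gbp2, chr3:142620413-142620662, plus strand: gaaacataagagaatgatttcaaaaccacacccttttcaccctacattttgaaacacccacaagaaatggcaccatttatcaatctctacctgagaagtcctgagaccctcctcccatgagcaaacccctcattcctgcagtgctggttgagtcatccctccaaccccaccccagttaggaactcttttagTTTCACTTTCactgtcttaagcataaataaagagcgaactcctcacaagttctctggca
Gbp3, chr3:142559794-142560043, plus strand: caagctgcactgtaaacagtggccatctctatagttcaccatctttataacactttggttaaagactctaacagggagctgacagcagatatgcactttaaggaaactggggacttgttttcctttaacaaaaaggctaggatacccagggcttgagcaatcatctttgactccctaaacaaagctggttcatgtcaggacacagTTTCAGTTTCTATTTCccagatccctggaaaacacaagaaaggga
Gbp5, chr3:142496684-142496933, plus strand: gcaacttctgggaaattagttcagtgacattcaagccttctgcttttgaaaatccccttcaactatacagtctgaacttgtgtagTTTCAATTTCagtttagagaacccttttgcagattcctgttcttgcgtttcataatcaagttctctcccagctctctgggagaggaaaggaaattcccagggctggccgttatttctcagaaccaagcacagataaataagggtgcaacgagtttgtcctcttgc
Gbp7 (array Gbp6), chr3:142530086-142530335, plus strand: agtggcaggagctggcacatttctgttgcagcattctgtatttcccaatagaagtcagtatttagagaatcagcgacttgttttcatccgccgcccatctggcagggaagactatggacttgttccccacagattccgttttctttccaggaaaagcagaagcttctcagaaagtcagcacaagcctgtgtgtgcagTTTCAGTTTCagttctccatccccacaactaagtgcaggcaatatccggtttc
Gbp2b (array Gbp1), chr3:142594597-142594846, plus strand: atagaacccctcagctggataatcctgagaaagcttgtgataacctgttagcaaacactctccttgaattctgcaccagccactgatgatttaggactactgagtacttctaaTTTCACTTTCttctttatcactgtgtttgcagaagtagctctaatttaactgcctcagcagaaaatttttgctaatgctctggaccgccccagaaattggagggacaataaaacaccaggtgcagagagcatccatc

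A window held 300 bases, 250 before to 50 after the start, and the 5 genes had 6 windows. All 5 genes had an ISRE-like match in at least 1 window, whereas 3.44% of the 32851 promoter windows in the table held at least 1. The first count is of genes and the second of windows. The 5 are related genes of 1 cluster and are not independent of each other. In each of the 5 the match was on the strand opposite to the gene. It began 59 bases before the start in Gbp2, 53 in Gbp7, 165 in Gbp5 and 137 in Gbp2b, and Gbp3 held a pair of matches that overlap by 4 bases and begin 45 and 39 bases before its start. Gbp2 and Gbp2b had the same 10 letters, TTTCACTTTC, and Gbp3 and Gbp7 shared TTTCAGTTTC. GAS-like sequences, the palindromic kind bound by STAT dimers, were searched as TTC and GAA with 3 or with 4 bases of any kind between them, a pattern that reads the same on both strands. The shorter form occurred 2 times in Gbp5 and 2 times in Gbp7, against 8.3% of all windows with at least 1 match. The longer form occurred once, in a second window of Gbp3 that belongs to another annotated start and holds no ISRE-like match, against 6.95% of all windows. These are matches of letters, and binding was not measured.

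**Figure D1:**
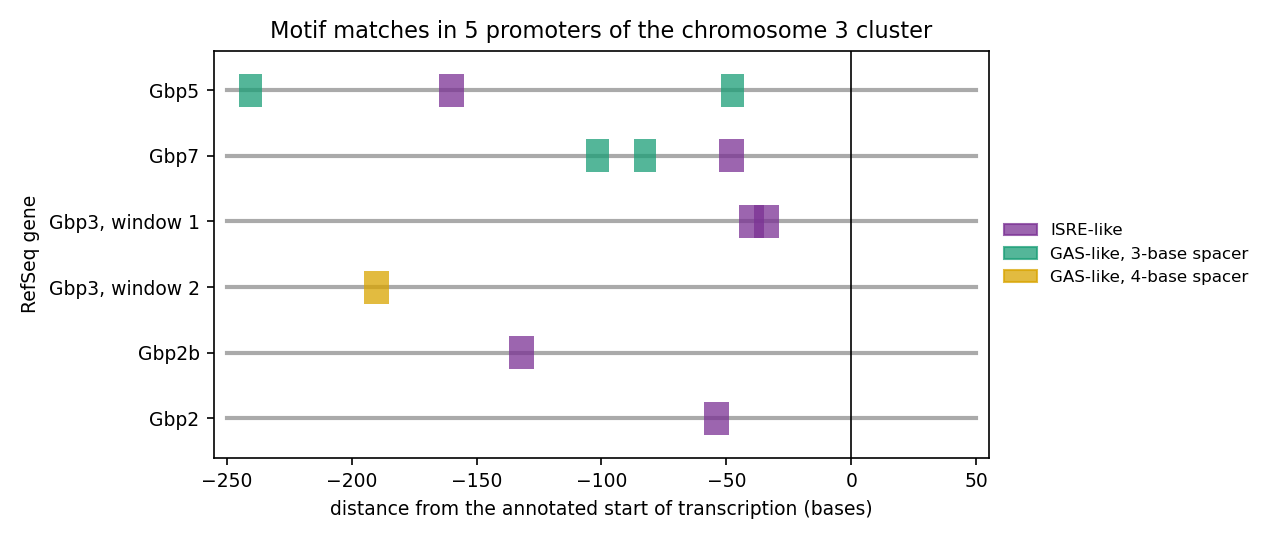
Positions of ISRE-like (purple), GAS-like with a 3-base spacer (green) and GAS-like with a 4-base spacer (yellow) matches, in bases from the annotated start of transcription at 0, in 6 RefSeq promoter windows of 5 genes of the chromosome 3 cluster. Every gene has an ISRE-like match in at least 1 window, between 165 and 39 bases before the start where it begins.

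Most of the detected guanylate-binding protein genes were higher after CSF-1, with the largest fitted increases in Gbp2 and Gbp3. At 24 h, 4 genes were called higher than in unstimulated cells (Gbp2, Gbp3, Gbp4 and array Gbp6), and at 48 h 6 were (the same 4 with Gbp5 and Gbp11). The 24 h call of Gbp4 lies between 2 groups without an array well above background, as its probe was detected only at 48 h. Gbp9 and Gbp10, both in the chromosome 5 cluster, were well above background on every array and did not pass the test at either time. Gbp1 and Gbp8 were not well above background on any array. No member was lower at either time. Calls are at an adjusted p under 0.05 in limma fitted on all 6 arrays, with Benjamini-Hochberg adjustment over the 24648 genes for which some group had both of its arrays well above background. Of all genes tested, 8.02% were called higher at 24 h and 6.58% at 48 h, and 4.91% at both times, against 4, 6 and 4 of the 8 members that passed the detection filter. The filter lets in genes that are detected only after stimulation, so these counts describe the members and are no test of them. Both comparisons use the same 2 unstimulated arrays. Each array measured RNA of a whole cell population, in which more expressing cells and more RNA per cell cannot be told apart.

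**Figure D2:**
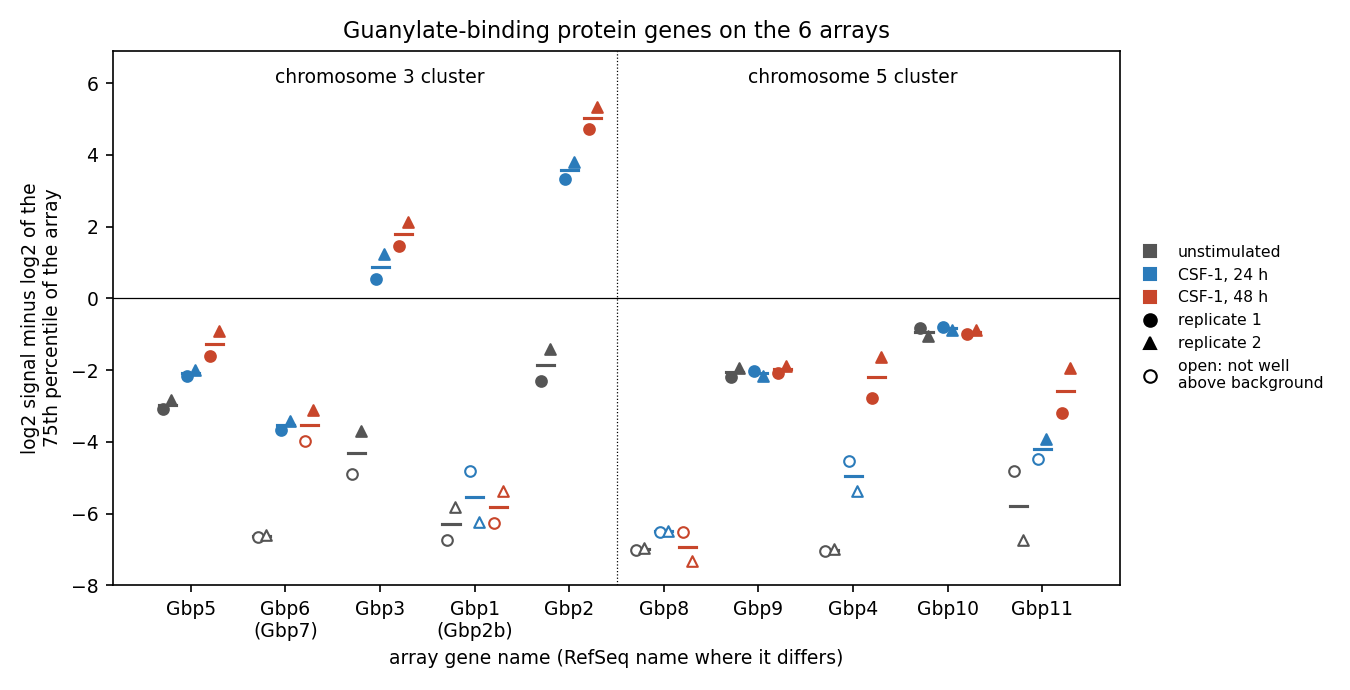
Level of each of the 10 genes on each of the 6 arrays (log2 signal minus log2 of the 75th percentile of the array), ordered along the 2 clusters. Circles are replicate 1, triangles replicate 2, horizontal lines group means, and open symbols arrays on which the probe was not well above background. Gbp2 and Gbp3 climb from group means of -1.86 and -4.31 unstimulated to 5.03 and 1.79 at 48 h, while Gbp9 and Gbp10 stay level.

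Gbp2, which coats the vacuoles of intracellular parasites and restricts their growth, had the largest fitted increase at both times. Its probe (NM_010260, chromosome 3, 142300719 to 142300778 on mm9, plus strand) had levels of -2.31 and -1.42 on the unstimulated arrays, 3.32 and 3.81 on the 24 h arrays, and 4.72 and 5.34 on the 48 h arrays. As deposited signals these were 111.1 and 228.8, then 5718.6 and 8352.1, then 14537.4 and 24431.6. The 3 groups did not overlap. Gbp2 rose by 5.43 ± 0.38 on the log2 scale (SE, n = 2 arrays per group, 43.0-fold, limma adjusted p = 0.0028) at 24 h and by 6.89 ± 0.38 (119-fold, limma adjusted p = 0.00138) at 48 h.

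Gbp3, a large GTPase encoded between array Gbp6 and Gbp1, followed the same course. Its probe (NM_018734, chromosome 3, 142236032 to 142236091) had levels of -4.91 and -3.71 unstimulated, 0.53 and 1.24 at 24 h, and 1.45 and 2.12 at 48 h. The first unstimulated array was not well above background and the second was. The groups again did not overlap. Gbp3 rose by 5.20 ± 0.48 (36.7-fold, limma adjusted p = 0.00521) at 24 h and by 6.10 ± 0.48 (68.5-fold, limma adjusted p = 0.00309) at 48 h. Without the second 24 h array, which leaves that group with only the array on the separate slide, the 24 h call was lost (adjusted p = 0.0554).

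Gbp5, known for promoting assembly of the NLRP3 inflammasome, was well above background on all arrays and moved less. A brighter probe, for an Ensembl transcript described as Gbp5, is no member by the naming rule. It had unstimulated levels of 0.10 and -0.20, and its differences of 0.04 and 0.23 were not called (limma adjusted p = 0.897 and 0.33). The levels of the probe named Gbp5 (NM_153564, chromosome 3, 142184779 to 142184838) were -3.09 and -2.83 unstimulated, -2.17 and -2.01 at 24 h, and -1.60 and -0.92 at 48 h. The groups did not overlap. The 24 h difference of 0.88 ± 0.25 did not pass (limma adjusted p = 0.0761), and the 48 h increase of 1.70 ± 0.25 did (3.25-fold, limma adjusted p = 0.0159). The 48 h call was lost without the first unstimulated array (adjusted p = 0.096), the second unstimulated array (0.0819) or the second 24 h array (0.067).

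Array Gbp6, which is RefSeq Gbp7, a gene tied to host defence against bacteria and parasites, was detected only with CSF-1. Its brighter probe (NM_145545, chromosome 3, 142209379 to 142209438) had levels of -6.66 and -6.59 unstimulated, neither well above background, then -3.68 and -3.41 at 24 h, both well above, and -3.97 and -3.11 at 48 h, the second well above. Both stimulated groups lay above the unstimulated arrays and overlapped each other. It was at least 2.27-fold higher at 24 h (limma adjusted p = 0.0056) and at least 2.27-fold higher at 48 h (limma adjusted p = 0.00497). The bound sets the mean of the brighter group, marked arrays or not, against a group without a marked array. Each array of that group counts at its lowest signal that was well above background, or at the probe's own signal where higher. Unmarked spots can exceed that lowest signal, as array Gbp6 did on the first 48 h array (-3.97 against -4.26). All folds given as at least a value are therefore working limits, not strict ones. Without the second unstimulated array both calls were lost (adjusted p = 0.0534 and 0.0514), and without the second 24 h array that at 24 h (0.0605). The other probe under this name (AY496685, chromosome 3, 142213888 to 142213947) was not well above background on any array, with levels between -6.99 and -4.86.

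Gbp1, RefSeq Gbp2b, completed the chromosome 3 cluster. Its brighter probe (NM_010259, 142281897 to 142281956) had levels between -6.74 and -4.82 and its other probe (142281466 to 142281525) between -7.14 and -6.31, none well above background. The gene lies between Gbp3 and Gbp2 in RefSeq order, and its promoter holds the same ISRE-like letters as Gbp2. Its transcript was not detectable at the signal these arrays resolve.

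In the chromosome 5 cluster, Gbp4 was detected only at 48 h. Its probe (NM_008620, chromosome 5, 105544852 to 105544911 on mm9, minus strand) had levels of -7.04 and -7.00 unstimulated, -4.53 and -5.37 at 24 h, and -2.77 and -1.63 at 48 h. The groups did not overlap, and only the 48 h arrays were well above background. Gbp4 was at least 5.77-fold higher at 48 h than unstimulated (limma adjusted p = 0.00461), a call that lay at the threshold without the second unstimulated array (adjusted p = 0.05). The 24 h difference passed the test (limma adjusted p = 0.0395) although neither group was well above background, so no fold is given. That call was lost without either unstimulated array (adjusted p = 0.148 and 0.172), without either 24 h array (0.149 and 0.0931), and under quantile normalization (0.069) or normexp background correction (0.193).

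Gbp11 had levels (NM_001039647, chromosome 5, 105752145 to 105752204) of -4.81 and -6.74 unstimulated, -4.49 and -3.93 at 24 h, and -3.21 and -1.95 at 48 h. Neither unstimulated array was well above background, 1 of 2 was at 24 h and both were at 48 h. It was at least 4.44-fold higher at 48 h (limma adjusted p = 0.0461), and the 24 h difference did not pass (limma adjusted p = 0.22). The 48 h call was lost on leaving out any of the 6 arrays, with adjusted p between 0.0537 and 0.17.

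Gbp9 and Gbp10 were measured on all 6 arrays and their groups overlapped at both times. Gbp9 (NM_172777, chromosome 5, 105508946 to 105509005) had levels of -2.18 and -1.95, then -2.03 and -2.16, then -2.07 and -1.88. Its difference was -0.03 (95% confidence interval -0.38 to 0.32) at 24 h and 0.09 (-0.27 to 0.44) at 48 h. Gbp10 (NM_001039646, chromosome 5, 105644753 to 105644812) had levels of -0.82 and -1.06, then -0.81 and -0.87, then -0.99 and -0.87. Its difference was 0.10 (-0.22 to 0.43) at 24 h and 0.01 (-0.31 to 0.34) at 48 h. The upper limits of these intervals lie below the lower limits of Gbp2 (4.48) and Gbp3 (3.99) at 24 h. Gbp8 (NM_029509, 105443951 to 105444010) completed the cluster with levels between -7.33 and -6.48, none well above background.

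**Figure D3:**
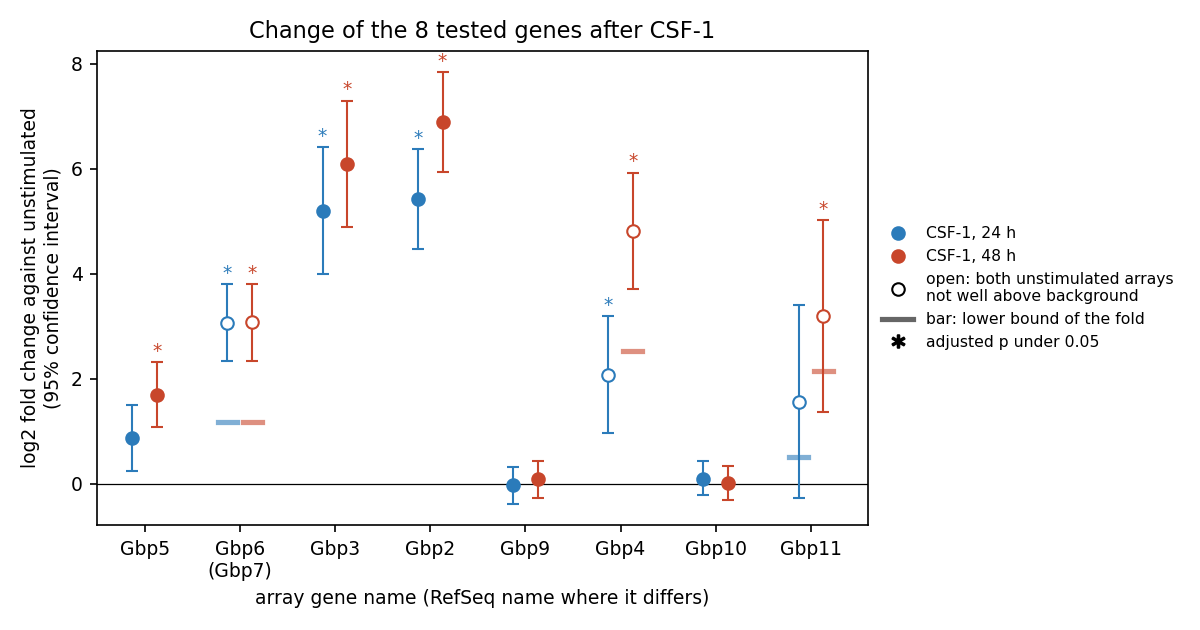
Log2 fold change of the 8 tested genes against unstimulated cells at 24 h (blue) and 48 h (red), with 95% confidence intervals from limma. Open symbols are fitted values of genes whose unstimulated arrays were not well above background, short bars their working lower bounds, and asterisks an adjusted p under 0.05. Gbp2 reaches 6.89 at 48 h and the intervals of Gbp9 and Gbp10 include 0.

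RefSeq Gbp6, which the array carries as Mpa2l, is no member by the naming rule but sits in the same cluster between Gbp10 and Gbp11. Its brighter probe had levels of -4.18 and -4.76 unstimulated, -4.12 and -4.86 at 24 h, and -3.54 and -2.81 at 48 h, with both 48 h arrays above all others. The differences were -0.02 ± 0.38 at 24 h (limma adjusted p = 0.978) and 1.30 ± 0.38 at 48 h (limma adjusted p = 0.0818). The pseudogene Gbp2-ps, on the array as Gm6243 and next to Gbp2 in the chromosome 3 cluster, differed by 0.82 ± 0.50 at 24 h and 0.91 ± 0.50 at 48 h, with limma adjusted p of 0.339 and 0.288.

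The direct comparison of 48 h with 24 h asked whether levels went on climbing. No member differed after adjustment, and neither did any other of the 24648 genes tested (0%). At an unadjusted p under 0.05, Gbp2, Gbp4 and Gbp5 were higher at 48 h, 3 of 8, while 13.6% of all genes passed in either direction. Gbp2 differed by 1.46 (95% confidence interval 0.52 to 2.41, 2.76-fold, limma adjusted p = 0.215). Gbp5 differed by 0.82 (0.20 to 1.45, limma adjusted p = 0.262). Gbp4, detected only at 48 h, was at least 4.5-fold higher than at 24 h (limma adjusted p = 0.131). Gbp3 differed by 0.90 (-0.31 to 2.10, limma adjusted p = 0.478), Gbp11 by 1.64 (-0.20 to 3.47, limma adjusted p = 0.411) and array Gbp6 by 0.00 (-0.73 to 0.74, limma adjusted p = 0.997). In 5 of the 8 tested members both 48 h arrays lay above both 24 h arrays, an arrangement found in 14.2% of all genes tested.

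Counted without the fit, 6 of the 8 tested members had both 24 h arrays above both unstimulated arrays, against 31.3% of all genes, and 6 had both 48 h arrays above them, against 23.8%. The 24 h count includes Gbp4, which was not well above background in either of those groups. With the thresholds in the study's legend, an unadjusted p under 0.05 and a change of at least 2-fold, the same 4 members passed at 24 h and the same 6 at 48 h, where 5.86% and 4.66% of all genes passed in that direction. The median fitted change of the 8 was 1.82 at 24 h and 3.14 at 48 h on the log2 scale, or 0.70 and 1.93 with genes of undetected baseline set at their bound, or at 0 where neither group was detected. The median over all genes tested was 0.04 and -0.04. With normexp background correction, which adds an offset of 50 to each signal and so draws dim probes together, the fitted log2 changes were smaller and in the same direction. At 24 h and 48 h they were 4.82 and 6.30 for Gbp2, 3.42 and 4.30 for Gbp3, 0.53 and 1.10 for Gbp5, 0.76 and 0.71 for array Gbp6, 0.43 and 1.57 for Gbp4 and 0.42 and 1.06 for Gbp11, and each that had been called stayed called except Gbp4 at 24 h. An exact permutation test of 2 arrays against 2 cannot give a two-sided p below 0.333.

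The replicates differed in one direction for the strongest members. The second array exceeded the first for Gbp2 by 0.89 unstimulated, 0.48 at 24 h and 0.62 at 48 h, and for Gbp3 by 1.19, 0.71 and 0.67. Each of these gaps was smaller than any of the increases of the same gene over unstimulated cells.

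Along the chromosomes, the increases were found within the clusters and not in the measured genes that flank them. On chromosome 3 the cluster runs in RefSeq order from Gbp5 through array Gbp6, Gbp3, Gbp1 and Gbp2 to Gbp2-ps. Of the 3 genes on the side of Gbp5, only Pdlim5 had a tested probe, and it differed by -0.07 and -0.04 (limma adjusted p = 0.803 and 0.879). On the other side Kyat3, which the array names Ccbl2 and which encodes an aminotransferase of kynurenine metabolism, fell by 1.05 ± 0.14 at 48 h (limma adjusted p = 0.0134) after a 24 h difference of -0.40 ± 0.14 (limma adjusted p = 0.131). Gtf2b, a general transcription factor gene beyond it, differed by 0.11 and 0.09 (limma adjusted p = 0.648 and 0.725). On chromosome 5 the cluster runs Gbp8, Gbp9, Gbp4, Gbp10, Mpa2l, Gbp11, so the genes called higher there, Gbp4 and Gbp11, were not neighbours. Of the 6 genes that flank it, Abcg3 and 4930542N06Rik had a probe that did not pass the detection filter, and the other 4 were not matched to a probe.

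**Figure D4:**
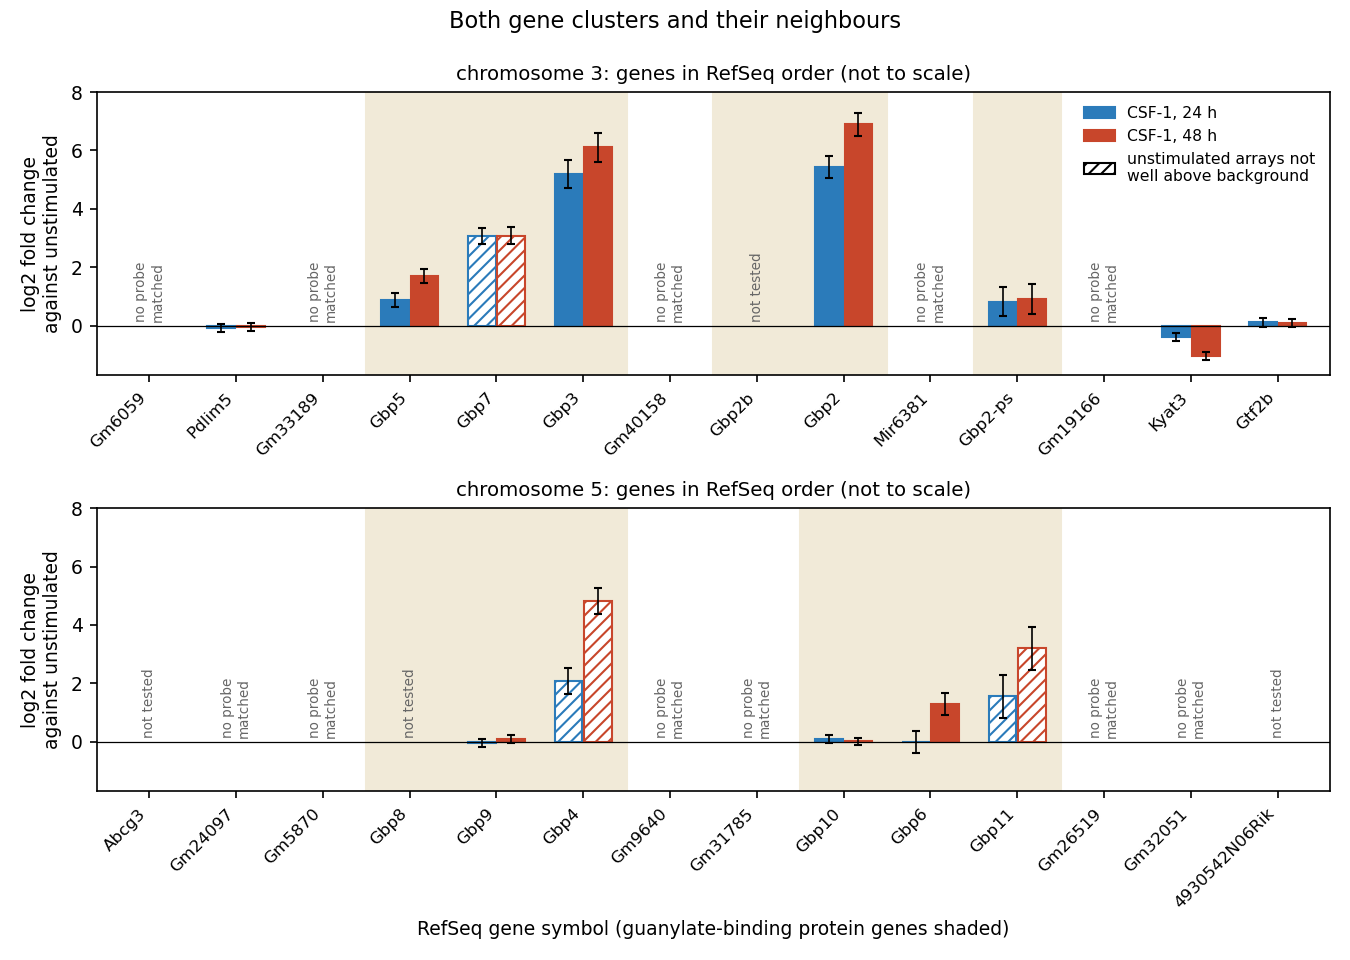
Log2 fold change against unstimulated cells at 24 h (blue) and 48 h (red) for genes in RefSeq order along both clusters, with the 3 flanking genes on each side, error bars of 1 SE, and guanylate-binding protein genes shaded under their RefSeq names. Hatched bars are fitted values over a baseline that was not well above background. Bars of the flanking genes stay near 0, apart from Kyat3 at -1.05.

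Genes of the interferon pathway, known to control this family, were also on the array. Of 9 interferon genes listed, 4 passed the detection filter and 0 were called at either time with limma. The 4 were Ifna1, Ifna2, Ifnl3 (array Il28b) and Ifnk. The first 3 were well above background on all 6 arrays, and Ifnk was on both arrays of a group only at 24 h. Ifng was well above background on 1 of 6 arrays, an unstimulated one, with levels between -5.51 and -4.87, and Ifnb1 on none, with levels between -6.64 and -5.36.

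Of 8 tested receptors and kinases, 2 were higher and 1 lower at both times. Jak2, a kinase of the interferon gamma receptor, rose by 1.10 ± 0.15 at 24 h and 1.24 ± 0.15 at 48 h (limma adjusted p = 0.0121 and 0.00921). Il10rb, a receptor chain shared by interferon lambda and interleukin 10, rose by 0.91 and 1.05 (limma adjusted p = 0.019 and 0.0137). Ifngr1, the ligand-binding chain of the interferon gamma receptor, fell by 0.71 and 0.68 (limma adjusted p = 0.015 and 0.0172). All genes tested were called lower in 5.99% of cases at 24 h and 7.38% at 48 h.

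The listed transcription factors, with the co-activator Nlrc5 counted among them, moved further. Of 9 tested, 7 were higher at 24 h and 8 at 48 h, with median fitted changes of 2.73 and 2.79. With genes of undetected baseline set at their bound, the medians were 1.97 and 2.79. Batf2 rose by 4.91 ± 0.37 and 5.72 ± 0.37, Irf7 by 3.67 ± 0.18 and 4.91 ± 0.18, and Stat2 by 2.77 ± 0.18 and 3.54 ± 0.18. Irf9, the DNA-binding partner of STAT proteins at the ISRE, rose by 2.73 ± 0.24 and 2.79 ± 0.24. Irf1, which is itself induced by interferon gamma and binds the ISRE, rose by 1.25 ± 0.23 and 2.08 ± 0.23. Nlrc5, a co-activator of MHC class I genes, had no unstimulated array well above background and was at least 3.91-fold and at least 7.74-fold higher.

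Listed inhibitors of signaling through JAK kinases and STAT proteins, not all of them particular to interferons, were mostly higher as well. At both times 5 of 7 tested were higher, with medians of 1.33 and 1.66. Usp18, which blocks the type I interferon receptor, rose by 6.66 ± 0.48 and 8.04 ± 0.48. The STAT-induced feedback inhibitors Socs3, Cish and Socs1 rose by 3.74, 3.38 and 1.33 at 24 h and by 2.91, 3.05 and 1.66 at 48 h.

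The immunity-related GTPases, smaller enzymes that act on the same vacuoles as the guanylate-binding proteins, were higher in 8 of 11 cases at 24 h and 10 of 11 at 48 h, with medians of 2.05 and 3.59. Irgm2 rose by 6.79 ± 0.81 and 8.14 ± 0.81 and Igtp (Irgm3) by 5.37 ± 0.61 and 7.04 ± 0.61, both regulators that keep the other GTPases off host membranes. Gm4951 rose by 5.23 and 7.03. For Irgm2 and Gm4951 the first unstimulated array, at levels of -6.81 and -5.84, was not well above background and the second, at -4.38 and -4.30, was, so that their baseline was measured on 1 of 2 arrays. Gm4841, undetected without CSF-1, was at least 5.77-fold and at least 19.7-fold higher. Between 24 h and 48 h, 0 of the 11 differed after adjustment in limma and 9 at an unadjusted p under 0.05. Of 3 other large interferon-inducible GTPases tested, 2 were higher at both times. Mx1, an antiviral dynamin-like GTPase, was at least 4.95-fold and at least 27.9-fold higher, and Gvin1 rose by 3.52 and 4.89.

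Partners of the guanylate-binding proteins changed in part. Of 11 inflammasome and pyroptosis genes tested, 6 were higher at each time, with medians of 0.70 and 0.61. Zbp1, a sensor of nucleic acids, rose by 3.86 and 4.77, and Casp4, the caspase that binds lipopolysaccharide exposed by guanylate-binding proteins, by 3.28 and 3.57. Mlkl, the executioner of necroptosis, rose by 1.12 and 1.18, and the cytokine gene Il18 was at least 1.66-fold and at least 2.43-fold higher. Gsdmd, the pore-forming substrate of that caspase, differed by 0.40 at 24 h (limma adjusted p = 0.0634) and rose by 0.90 at 48 h (limma adjusted p = 0.00872). Aim2, a sensor of DNA, was well above background on 1 of 6 arrays and was not tested.

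Among 15 ubiquitin and autophagy factors, some of which direct the GTPases to vacuoles, 2 were higher and 2 lower at 24 h and 3 higher and 1 lower at 48 h, with a median of 0.18 at both times. Trim21, a ubiquitin ligase, rose by 4.26 and 5.14 and Atg7 by 0.73 and 1.01, whereas Atg3 fell by 0.83 and 0.78. Gabarapl2 differed by 0.08 and 0.07. Of 10 genes for protein prenylation, 0 were higher and 2 were lower at each time in limma, and Fnta, a subunit of the prenyl transferases, fell by 0.51 and 0.62. The medians of that list were -0.25 and -0.18.

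**Figure D5:**
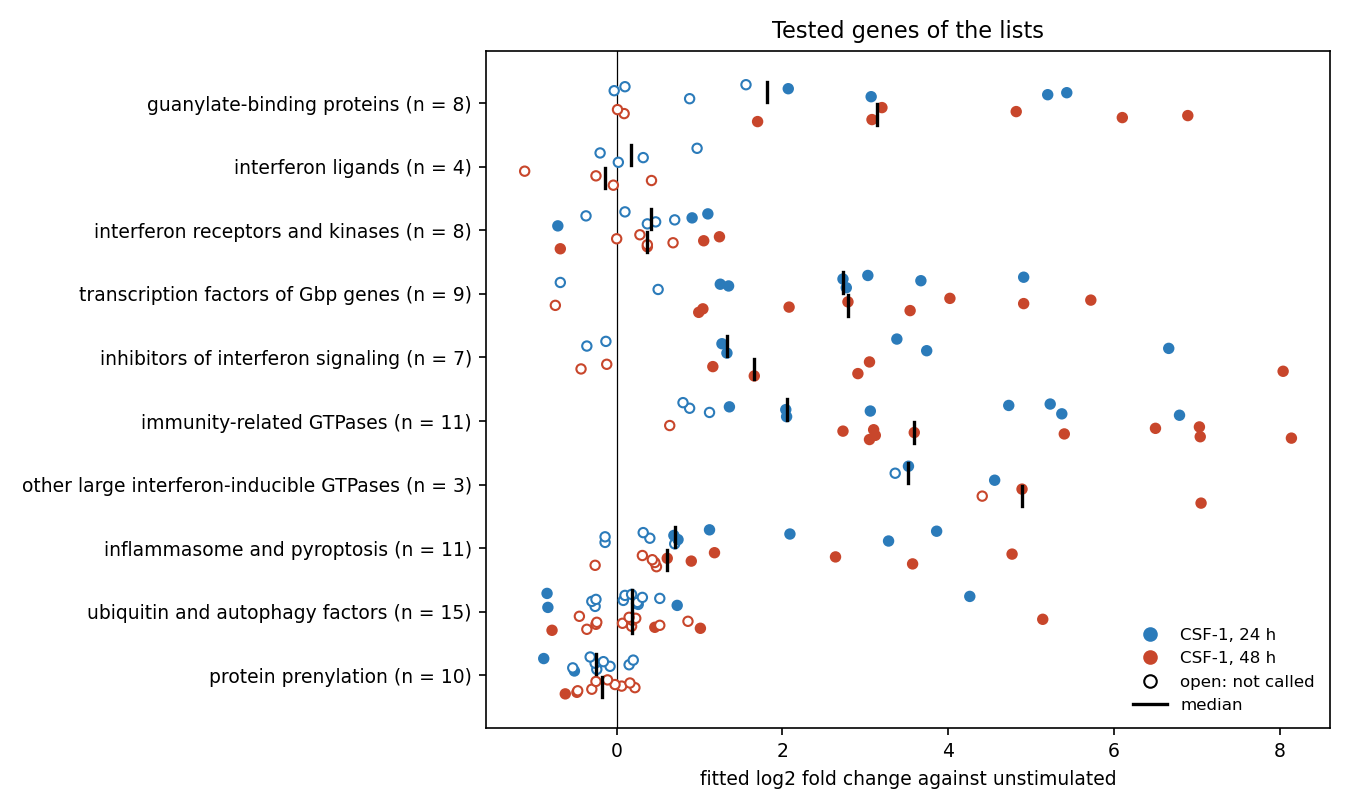
Fitted log2 fold changes against unstimulated cells of the tested genes of each list, at 24 h (blue, upper row) and 48 h (red, lower row), with filled symbols for an adjusted p under 0.05 and black lines for medians. The guanylate-binding proteins spread from near 0 to 6.89, and the transcription factors and immunity-related GTPases lie mostly to the right of 0.

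The genes whose course over the 6 arrays was most like that of the members were found by the root mean square difference of centered log2 levels. The reference was the mean of the 5 members well above background on all 4 stimulated arrays (Gbp2, Gbp3, Gbp5, Gbp9 and Gbp10), and 21822 other genes so detected were compared. The nearest were Dcn (0.135), which encodes decorin, Nmi (0.136), an interferon-induced partner of STAT proteins, a long noncoding RNA (0.136), Ctla2b (0.144), which encodes a cathepsin inhibitor-like protein, and Ifitm6 (0.146), a member of an interferon-inducible family. Their increases ranged from 2.08 to 2.45 at 24 h and from 2.70 to 3.09 at 48 h. The reference mean combines Gbp2 and Gbp3 with Gbp9 and Gbp10, which were not called, and leaves out Gbp4, array Gbp6 and Gbp11, so it follows no single member. Likeness to it is a description over 6 arrays.

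Marker lists of other cell types were summed on each array. Of the 12 macrophage markers, 2 were called higher at both times, Cd14 by 0.87 and 0.69 and Mrc1 by 4.27 and 3.56. The summed linear level of the 12 was 43.6 to 49.1 on the unstimulated arrays, 37.0 to 44.6 at 24 h and 30.4 to 40.1 at 48 h. Most of it came from Itgam, which differed by -0.43 and -0.65 and was not called (limma adjusted p = 0.264 and 0.12). Of 6 T and NK cell markers, 0 were called in limma, and Cd4, Cd3e and Nkg7 held most of their sum. That sum was 23.3 to 28.5, 26.1 to 27.6 and 26.2 to 32.1. That of 6 fibroblast markers, Dcn among them, was 133 to 136, 71.2 to 73.3 and 56.0 to 67.2, a sum held mostly by the collagen gene Col1a1. Among these 6, 2 rose at 24 h (Dcn by 2.08 and Pdgfra by 1.33) and 1 at 48 h (Dcn by 2.78), while 2 were lower at both times, Col1a1, which fell by 0.88 and 1.19, and Col3a1, which fell by 1.35 and 0.82. That of 5 endothelial markers was 18.8 to 25.4, 20.6 to 24.0 and 18.8 to 21.6, most of it from Kdr, which differed by -0.03 and -0.19 and was not called. Of the 5, Cdh5 rose by 3.87 at 24 h (limma adjusted p = 0.00308) and 3.97 at 48 h (limma adjusted p = 0.00234), with 1 of its 2 unstimulated arrays well above background, and Vwf rose by 0.93 at 24 h (limma adjusted p = 0.042). Their part in the changes of the guanylate-binding proteins was not tested. Without the array on the separate slide, Gbp2, Gbp3 and array Gbp6 were still called at 24 h and the 24 h call of Gbp4 was lost (adjusted p = 0.149).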

How the data were processed

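Expression was measured on 6 single-color Agilent mouse arrays, 2 per group, with groups from the labels. Per the file headers, the authors deposited Feature Extraction 11.0.1 output with probe positions on mm9, and the background-subtracted linear signal intensity of each spot was used. The authors also deposited log2 values for part of the probes, whose normalization is not stated in the sources used here. They served as an alternative, and 99.78% of their differences between arrays lay within 0.05 of those of the log2 signal apart from a constant for each array.

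Control spots and outlier flags were left out, spots of a probe averaged, and the log2 signal set against the 75th percentile of each array. This dropped 303 probes that had no unflagged spot on at least 1 array. The brightest probe stood for each gene. The 24648 genes for which some group had both arrays well above background were tested in R 4.3.3 with limma 3.58.1 (lmFit, eBayes, two-sided, 3 residual and 2.39 prior degrees of freedom, no covariates) and Benjamini-Hochberg adjustment. The number of arrays limits the precision. Over 55378 probes, replicate arrays correlated with a Pearson r between 0.982 and 0.984. On simulated data with 24648 genes, 4-fold changes were recovered in 72% of 50 cases at 24 h and 74% at 48 h, and 2-fold changes in 30% and 40%. Each fold size had 50 changed genes, whereas 3453 and 3440 genes were called in the data at 24 h and 48 h. The adjustment depends on that number, so these rates need not hold for the reported fit. Of the genes tested, 15630 were matched to RefSeq, 14401 of them by accession.

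All Gbp probes were named. Of 9 lists on interferon ligands, receptors and kinases, transcription factors, inhibitors, immunity-related GTPases, other large GTPases, inflammasome, ubiquitin and autophagy, and prenylation, up to 4 genes called at both times with the largest mean change were named, with Ifng, Ifnb1, Irf1, Irf9, Aim2, Casp4, Gsdmd and Gabarapl2 whatever their values. Some items of the rule are not reported here. The 3 genes on each side of a cluster, the 5 nearest profiles and the interferon genes that passed the filter were added. Members and lists were chosen with earlier results of these data known. Motifs were searched on both strands with Python 3.11.15 in RefSeq promoters on GRCm38.p6. Protein sequences were not used here.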

Additional observations from a re-analysis of the deposited data

How the results depend on the processing

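Gbp2 was called at both times under all 12 other settings (adjusted p up to 0.0181 at 24 h and 0.0114 at 48 h) and on leaving out each of the 6 arrays (up to 0.0418 and 0.0172). Gbp3, array Gbp6 and the 48 h increase of Gbp4 were called under all 11 settings that tested them. Gbp4 at 24 h was called under 6 of 11, losing it also under normexp with quantile normalization (0.481), without the filter on dim probes (0.101) and with the replicate block (0.0644). Gbp5 at 48 h was called under 11 of 12 (0.0624 without the filter), and Gbp11 at 48 h under 5 of 11. Without the second unstimulated array, Gbp4 at 48 h lay at the threshold (adjusted p = 0.05). The cause of these losses was not tested.

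Requiring all 6 arrays well above background leaves out genes with an undetected baseline, and then 1 member was called at 24 h, 2 at 48 h and 1 at both. Leaving out 1 array gave 1 to 5 members at 24 h, 3 to 5 at 48 h, 1 to 5 at both times and 0 between the times in every case. Over the whole table it gave 421 to 2363 genes at 24 h against 3453, 650 to 1928 at 48 h against 3440 and 0 to 55 between the times. For the lists together it gave 9 to 29 higher genes against 32 at 24 h and 23 to 30 against 36 at 48 h. Without the filter, 1321 and 869 genes were called, with an intensity trend 5477 at 48 h, and in the fit of only the compared groups 2116 at 48 h. Between 24 h and 48 h, 5 genes were called with median centring, 210 with normexp, 286 with normexp and quantile normalization, 5 with all 6 arrays required and 195 with the trend. Normexp with quantile normalization called 1 member between the times, Gbp2 (adjusted p = 0.0423).

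Values near 0 changed sign without being called. Gbp9 was -0.01 at 48 h with median centring and 0.00 at 24 h with normexp, and on leaving out arrays ranged from -0.15 to 0.08 at 24 h and -0.03 to 0.20 at 48 h. Gbp10 was -0.18 and -0.09 with median centring, with 0.09 between the times, and -0.01 at 48 h with quantile normalization, and ranged from -0.01 to 0.22 and -0.10 to 0.13 on leaving out arrays. The difference of array Gbp6 between the times was -0.05 with normexp and -0.54 with the mean of its probes, and ranged from -0.42 to 0.43 on leaving out arrays.

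With the replicate number as a block, the pairing gave 4, 5 and 4 members at 24 h, 48 h and both times, with Gbp5 called at 24 h (adjusted p = 0.041) and Gbp11 lost at 48 h (0.0749). Same-numbered arrays had correlated deviations of 0.13, 0.09 and 0.20 over 24648 genes, and with 2 pairs the numbers do not establish a pairing. Signal over background limits Gbp1, Gbp8 and the unstimulated levels of Gbp4, Gbp6 and Gbp11.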

Other observations

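A pair of further probes carry a description that names a guanylate-binding protein, and they were picked by that description after their values were seen. The probe for an Ensembl transcript described as Gbp5 (chromosome 3, 142181426 to 142181485 on mm9) had unstimulated levels of 0.10 and -0.20, 24 h levels of 0.04 and -0.07, and 48 h levels of 0.16 and 0.20, and its differences of 0.04 and 0.23 were not called (limma adjusted p = 0.897 and 0.33), unlike the RefSeq Gbp5 probe at 48 h. The difference between these probes was not tested. The other, a transcript contig on chromosome 5 (22199627 to 22199686) outside the cluster, fell by 0.61 at 24 h (limma adjusted p = 0.0279) and differed by -0.38 at 48 h (limma adjusted p = 0.0883).

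The dimmer Mpa2l probe stood well above background on 1 array of each stimulated group and on 0 unstimulated arrays. Its levels were -5.19 and -5.28, then -3.81 and -4.07, then -4.00 and -2.19. It was at least 1.73-fold higher at 24 h and at least 3.1-fold higher at 48 h, and it did not pass the detection filter and was not tested.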
